A study of Mus musculus with 7 samples.

Results

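The 10 genes described here encode adhesion molecules, and 1 scaffold protein, through which oligodendrocytes and axons hold each other at and around the node of Ranvier. They were chosen by name from the 49315 genes counted in each library: Nfasc, Cntn1, Cntn2, Cntnap1, Nrcam, Cadm1, Cadm2, Cadm3, Cadm4 and Epb41l3. At the paranode, the terminal loops of the myelin sheath carry the glial isoform of neurofascin (Nfasc), which binds a complex of contactin 1 (Cntn1) and Caspr (Cntnap1) on the axon. Contactin 2 (Cntn2, also known as TAG-1) belongs to the juxtaparanode next to it, the neuronal isoform of neurofascin and NrCAM (Nrcam) to the node itself, and the SynCAM or nectin-like proteins (Cadm1 to Cadm4) to the internode, where the glial Cadm4 binds axonal Cadm2 and Cadm3. Protein 4.1B (Epb41l3) is a membrane scaffold that ties the paranodal and internodal adhesion proteins to the spectrin and actin skeleton. Several of these genes are expressed by neurons as well as by oligodendroglia.

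Transcript levels were compared between primary oligodendroglia from 4 wildtype control and 3 constitutive Klf13 knockout cultures, with 1 library per culture, to ask which genes depend on KLF13, a zinc finger transcription factor of the Krüppel-like family. The cells were shaken off from mixed glial cultures of newborn brains of both sexes, depleted of microglia and kept for 6 days in SATO medium with thyroid hormones, which induces differentiation. Both groups received the same medium, the controls carried no deletion, and in the knockout Klf13 was missing from all cell types and not only from oligodendroglia.

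The libraries held 24507471 to 59596479 counts on genes, and values are given as CPM, the counts of a gene scaled to a common library total, with TMM factors. Klf13 itself (chr7:63886351-63938915, GRCm38) was at 248, 268, 273 and 243 CPM in the controls and at 18.2, 19.9 and 21.9 CPM in the knockouts, 7.76% of the control mean (log2 fold change -3.69 ± 0.09 SE, adjusted p = 6.77e-06, edgeR's quasi-likelihood test). The labelled cell type was borne out by the lineage markers in both groups: Olig1 was at 1168 ± 81.0 CPM in controls (SD, n = 4) and 1087 ± 108 in knockouts (SD, n = 3), and the markers of oligodendrocyte precursors summed to 3235 to 3513 and 3979 to 4018 CPM, with Ptprz1 higher in the knockout and the other 6 not passing the test. All 9 markers of myelinating oligodendrocytes fell, from a sum of 12803 to 14436 CPM to a sum of 2706 to 3318 CPM, and of the 5 lineage markers only Cnp passed the test, also downwards. In bulk RNA, fewer cells of a type and less RNA per cell cannot be told apart. Markers of 2 other cell types were higher in the knockout: 13 of 16 neuron markers rose, with sums of 211 to 526 CPM in controls and 1132 to 1556 CPM in knockouts, and 8 of 9 astrocyte markers rose, with sums of 2391 to 3275 and 4599 to 5399 CPM. No neuron or astrocyte marker was at 0 in all libraries. The 7 microglia markers had adjusted p-values of 0.467 and above (C1qa at 202 ± 191 CPM in controls and 153 ± 39.0 in knockouts), with sums of 346 to 1633 and 331 to 722 CPM. Fibroblast and mural cell markers summed to 281 to 1307 CPM in controls and 124 to 291 CPM in knockouts, with 1 of 8 (Dcn) lower, endothelial markers to 10.2 to 25.4 and 9.06 to 12.6 CPM, with 1 of 4 tested (Cdh5) lower, and Schwann cell markers to 4.35 to 6.84 and 2.46 to 7.19 CPM, with 1 of 4 tested (Pmp2) lower. The libraries also differed in the share of counts on 3 genes that collect ribosomal RNA reads (Gm42418, Gm23935 and Lars2), which was 14.1% and 15.0% in control replicates 1 and 4 and 17.0% and 18.0% in knockout replicates 1 and 3, but 6.03% to 7.56% in the other 3 libraries.

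Before the values, the stretches of DNA upstream of the annotated transcript starts are shown for 4 members, Nfasc with the change of the lowest p-value, Cadm2 and Cadm3 as partners at the internode that moved in opposite directions, and Epb41l3, which rose most. Sequences are the RefSeq promoter windows of GRCm38, written 5′ to 3′ on the strand of the gene and, except for Nfasc, ending at the base before the start, and capitals mark the letters CACCC and CCGCCC on either strand, which zinc fingers of the KLF family are known to read. For Nfasc the stretch is chr1:132707407-132707576 (- strand), the 170 bases of the window outside the counted exons, without the 80 exon bases next to the start, and upstream of a start that lies 34471 bases inside the gene as counted. Cadm2 is shown at chr16:67620909-67621158 (- strand) and Cadm3 at chr1:173367696-173367945 (- strand). Epb41l3 is shown at the first annotated start, chr17:69075427-69075676 (+ strand), which lies 81133 bases upstream of the gene as counted, and at the second, chr17:69156494-69156743 (+ strand), 66 bases upstream of it.
Nfasc: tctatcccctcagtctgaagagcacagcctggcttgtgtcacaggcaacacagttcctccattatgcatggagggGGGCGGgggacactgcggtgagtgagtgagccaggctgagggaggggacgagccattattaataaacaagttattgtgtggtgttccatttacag
Cadm2: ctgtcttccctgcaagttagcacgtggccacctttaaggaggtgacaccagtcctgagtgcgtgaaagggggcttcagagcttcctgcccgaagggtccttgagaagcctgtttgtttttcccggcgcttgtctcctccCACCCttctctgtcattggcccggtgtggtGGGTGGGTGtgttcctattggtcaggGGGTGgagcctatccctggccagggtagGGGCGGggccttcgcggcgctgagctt
Cadm3: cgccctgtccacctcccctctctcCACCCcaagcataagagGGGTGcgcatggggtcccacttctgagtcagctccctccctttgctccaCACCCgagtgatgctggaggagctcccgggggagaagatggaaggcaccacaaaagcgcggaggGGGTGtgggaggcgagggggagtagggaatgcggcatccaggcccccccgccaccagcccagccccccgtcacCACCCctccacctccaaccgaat
Epb41l3 start 1: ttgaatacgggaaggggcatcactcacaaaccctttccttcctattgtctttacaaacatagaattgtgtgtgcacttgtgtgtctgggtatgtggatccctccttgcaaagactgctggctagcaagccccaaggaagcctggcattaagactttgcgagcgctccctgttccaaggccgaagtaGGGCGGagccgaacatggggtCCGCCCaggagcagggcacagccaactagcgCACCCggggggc
Epb41l3 start 2: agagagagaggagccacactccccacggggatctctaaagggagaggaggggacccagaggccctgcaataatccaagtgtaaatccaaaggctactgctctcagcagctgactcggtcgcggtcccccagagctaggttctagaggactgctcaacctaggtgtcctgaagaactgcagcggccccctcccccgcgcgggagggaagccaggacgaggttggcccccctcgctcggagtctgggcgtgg

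The Cadm2 window held 4 stretches of these letters and the Cadm3 window 5, with overlapping matches joined, whereas the Nfasc window held 1 and the Epb41l3 windows 3 and 0. Of the members that did not pass the test below, Nrcam held 4, Cadm4 5 and Cntn2 3. Each window of Cntn1, which fell, held 0. The GC content was 60.8% in the Cadm2 window and 66.8% in the Cadm3 window, against a median of 52.4% over all windows. Over the 8 members with a RefSeq window, 9 of 13 windows held at least 1 stretch, beside 64.7% of all 32851 windows of the same length, whose median was 1 stretch. The letters ACAAT (a short form of the sequences bound by SOX proteins), ACAAA (changed at the end), TCAAT (changed at the start) and TCAAA (changed at both) occurred on either strand in 11 of the 13 windows and in 73.6% of all windows. A match describes letters only. No window was found for Cadm1 and Cntnap1.

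In the knockout, 4 members fell (Nfasc, Cntn1, Cadm1 and Cadm2), 3 rose (Cntnap1, Cadm3 and Epb41l3) and 3 did not pass the test (Cntn2, Nrcam and Cadm4), at an adjusted p of at most 0.05 by edgeR's quasi-likelihood test. All 10 passed the filter on low counts. Of the 18352 genes tested, 12.2% were lower and 11.6% higher by the same rule, 23.8% together. Adding a log2 fold change of at least 1, which 3.08% of the tested genes reached downwards and 3.97% upwards, left 2 members, Nfasc downwards and Epb41l3 upwards. Nfasc lay at this limit: its log2 fold change was short of it with upper quartile scaling (-0.97), total counts only (-0.96), the replicate block (-0.999), at least 10 counts in every library (-0.999) and without control replicate 1 (-0.997), control replicate 4 (-0.98) or knockout replicate 2 (-0.98), all with an adjusted p below 0.05 (edgeR). The control and knockout values did not overlap for 8 of the 10 members, beside 36.2% of all tested genes. Of the 8, 5 were lower, beside 18% of the tested genes, and 3 were higher, beside 18.3%. The median log2 fold change of the members was -0.24, against -0.0037 for all tested genes. With only the 4 libraries of the high ribosomal RNA share, a comparison of 2 with 2 added after the data were seen, 3 members passed downwards and 0 upwards by edgeR, while 2 passed upwards at an unadjusted p under 0.05, and DESeq2 and limma each called 2 upwards after adjustment. In that comparison the calls over all genes also dropped, from 2246 lower and 2122 higher to 1025 and 650. The number of members called downwards was 2 without control replicate 1 and 2 without knockout replicate 1, and the number called upwards was 1 without knockout replicate 2. With the replicate block 4 members were called downwards and 2 upwards, beside 2042 and 1741 of all genes. Over all genes, 1749 were lower without control replicate 1, 1254 were lower without knockout replicate 1 and 850 were higher without knockout replicate 2.

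**Figure D1:**
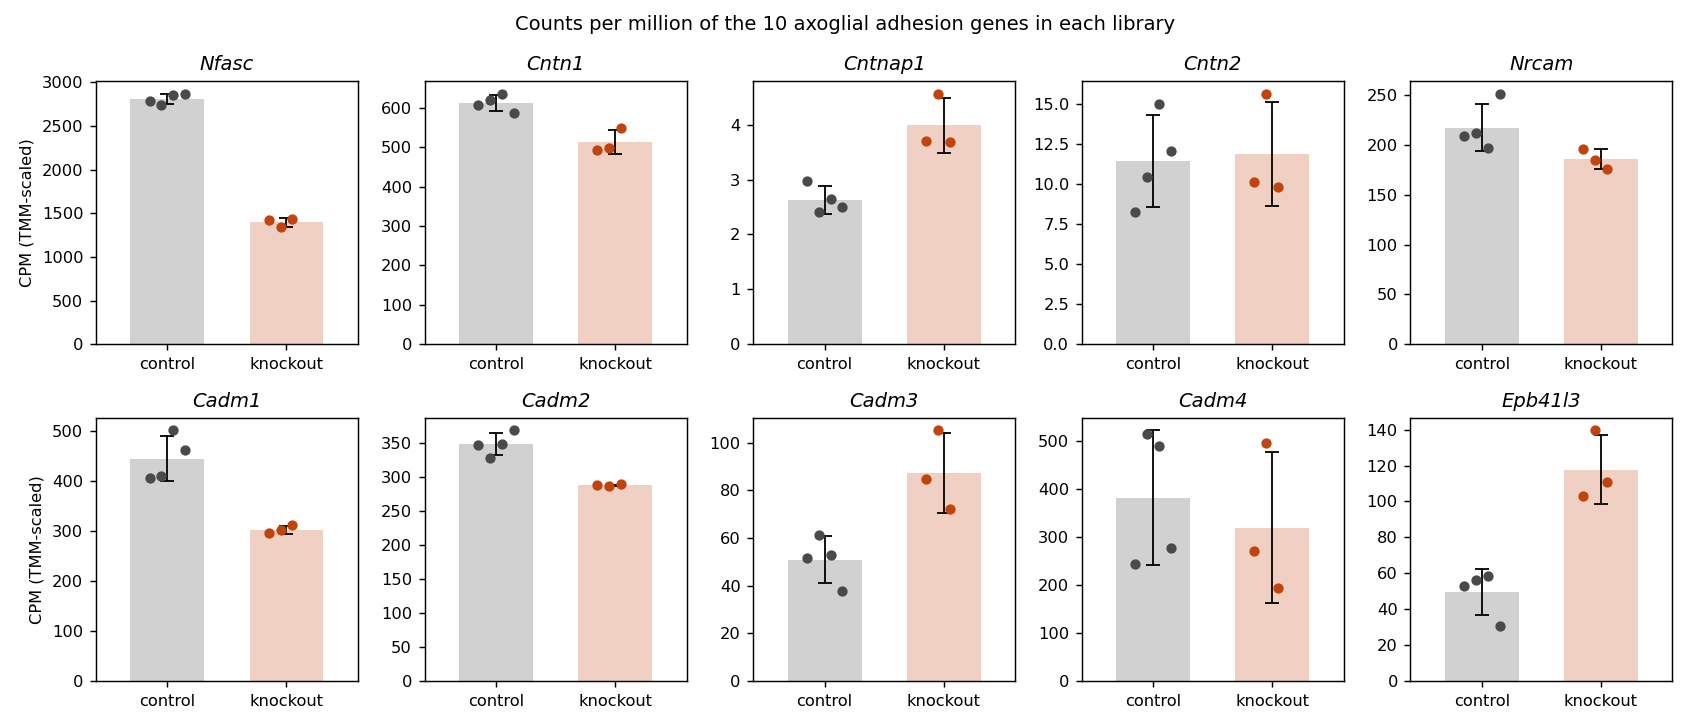
TMM-scaled CPM of each of the 10 genes, with 1 panel per gene and a separate vertical axis from 0 in each; points are libraries, bars the means of the 4 control and 3 knockout libraries and error bars the SD. Nfasc sits between 2739 and 2862 CPM in controls and between 1339 and 1434 CPM in knockouts, while the groups overlap for Cntn2 and Cadm4.

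The paranodal genes changed in unequal ways: Nfasc was 2.01-fold lower, Cntn1 was slightly lower and Cntnap1, at a very low level, was higher. Nfasc (chr1:132564690-132741797, - strand) was at 2790, 2739, 2856 and 2862 CPM in control replicates 1 to 4 and at 1423, 1339 and 1434 CPM in the knockouts. The libraries of each group lay close together and the groups were far apart. The means were 2812 ± 58.8 CPM (SD, n = 4) and 1399 ± 52.1 CPM (SD, n = 3), so that Nfasc fell by 1.01 on the log2 scale (SE 0.06, 95% confidence interval -1.15 to -0.87, adjusted p = 9.08e-05), rank 70 by p among the 18352 genes. Leaving out any 1 library moved the log2 fold change only between -1.02 and -0.98, and in the 4 libraries of the high ribosomal RNA share alone it was -1.01. The glial and the neuronal isoform of neurofascin come from this one gene, and counts per gene do not tell them apart. In these libraries 99.9% of the tested genes had a lower mean CPM than Nfasc.

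Cntn1 (chr15:92051165-92341967, + strand) encodes the glycolipid-anchored contactin that pairs with Caspr on the axon and is also made by oligodendrocyte precursors. It was at 608, 619, 636 and 586 CPM in controls and at 493, 498 and 548 CPM in knockouts. All knockout values lay below all control values, but the gap between the groups was narrow. The log2 fold change was -0.26 (SE 0.06, 95% confidence interval -0.40 to -0.11, adjusted p = 0.0244). The call rested on single libraries and on the scaling: it was lost without control replicate 1 (adjusted p = 0.0675), control replicate 2 (0.0541), knockout replicate 1 (0.121) or knockout replicate 2 (0.0922), with upper quartile scaling (0.0618) and with total counts only (0.0893), while the log2 fold change stayed between -0.30 and -0.21.

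Cntnap1 (chr11:101170523-101190724, + strand) encodes Caspr, the partner of contactin 1 on the axonal side of the junction. It had 90 to 292 counts per library, equal to 2.98, 2.40, 2.65 and 2.49 CPM in controls and 3.70, 4.57 and 3.69 CPM in knockouts. All knockout values were higher, with a log2 fold change of 0.60 (SE 0.15, 95% confidence interval 0.26 to 0.95, adjusted p = 0.0249). With the replicate number as a block the log2 fold change was 0.58 and the adjusted p 0.0864, without the filter on low counts the adjusted p was 0.0538, and it was 0.0584, 0.0546, 0.0553, 0.0977 and 0.0505 without control replicates 2 and 4 and knockout replicates 1, 2 and 3. Of its exon bases 233 (3.97%) are shared with Plekhh3 on the opposite strand, which held 5235 counts over all libraries against 1016 for Cntnap1. Since the strand setting of the counting was not given, how reads on these shared bases were counted is not known. Sums of the neuron markers were higher in the same libraries (211 to 526 against 1132 to 1556 CPM), and their part in the result was not tested.

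Neither Cntn2 nor Nrcam, the juxtaparanodal and the nodal member, passed the test. Cntn2 (chr1:132509427-132543256, - strand) lies 21433 bases from Nfasc on the same strand. It was at 8.26, 10.5, 15.0 and 12.1 CPM in controls and at 10.1, 15.7 and 9.86 CPM in knockouts. The groups overlapped, and the log2 fold change of 0.06 (95% confidence interval -0.50 to 0.62, adjusted p = 0.894) was much smaller than the spread within either group. The sign was negative without control replicate 1, without knockout replicate 2 and in the 4 libraries of the high ribosomal RNA share.

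Nrcam (chr12:44328885-44601846, + strand), the partner of neurofascin in the L1 family and a binding partner of gliomedin and of contactins, was at 209, 212, 197 and 252 CPM in controls and at 196, 185 and 176 CPM in knockouts. The groups met almost end to end, with the lowest control only just above the highest knockout. The log2 fold change was -0.23 (SE 0.09, 95% confidence interval -0.44 to -0.02, adjusted p = 0.111), and no alternative brought it past the threshold. Without control replicate 4 the log2 fold change was -0.13 and with the replicate block -0.15.

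**Figure D2:**
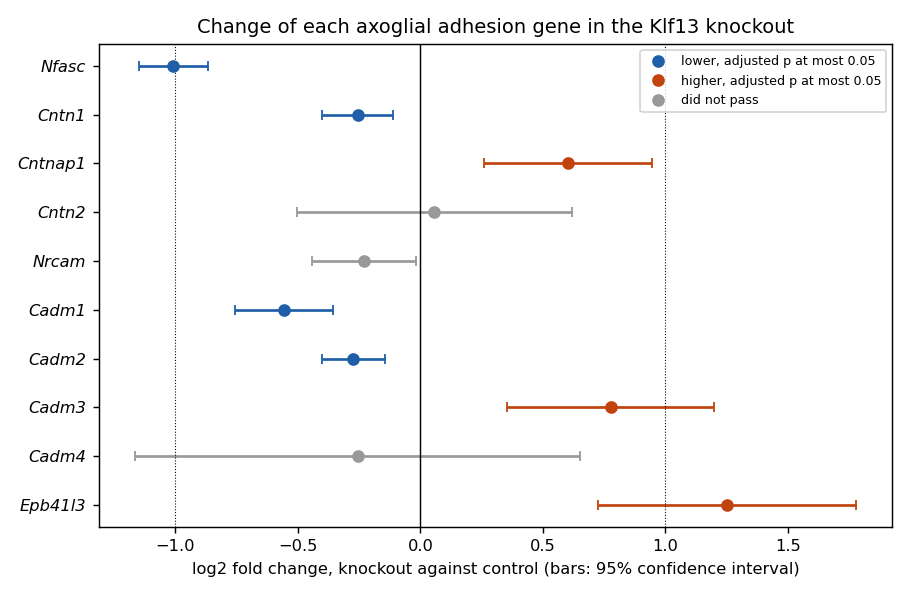
Log2 fold change of each gene in the knockout against the control with its 95% confidence interval, in the order in which the genes are described; dotted lines mark a fold change of 1 on the log2 scale in either direction. Nfasc at -1.01 and Epb41l3 at 1.25 are the only points beyond the dotted lines, and the widest interval, -1.16 to 0.65, belongs to Cadm4.

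Of the 4 SynCAM genes of the internode, Cadm1 and Cadm2 fell, Cadm3 rose and Cadm4 did not pass the test. Cadm1 (chr9:47530173-47857637, + strand) was at 406, 411, 502 and 462 CPM in controls and at 295, 302 and 311 CPM in knockouts. The groups were well apart and the knockouts lay within a few percent of each other. Cadm1 fell by 0.56 on the log2 scale (SE 0.09, 95% confidence interval -0.76 to -0.36, adjusted p = 0.00503), and it stayed past the threshold under all alternatives run, among them each left-out library.

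Cadm2 (chr16:66655421-67620908, - strand), a binding partner of Cadm4 that is best known from neurons, was at 347, 328, 348 and 368 CPM in controls and at 287, 287 and 289 CPM in knockouts. The knockouts were nearly equal (288 ± 0.907 CPM, SD, n = 3) and all below the lowest control. The log2 fold change was -0.27 (SE 0.06, 95% confidence interval -0.40 to -0.15, adjusted p = 0.0126). The adjusted p rose to 0.0521 without control replicate 1, to 0.0805 without knockout replicate 1 and to 0.0626 without knockout replicate 3. The window of Cadm2 shown above ends at the base before the gene as counted begins.

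Cadm3 (chr1:173333258-173367695, - strand), which marks axons in the pairing with Cadm4, went the other way. It was at 51.5, 61.4, 53.0 and 37.9 CPM in controls and at 84.8, 105 and 72.0 CPM in knockouts. Each knockout was above each control, and knockout replicate 2 was the highest. The log2 fold change was 0.78 (SE 0.18, 95% confidence interval 0.36 to 1.20, adjusted p = 0.0214), and without knockout replicate 2 the adjusted p was 0.0763. Ackr1 shares 361 exon bases (4.98%) with Cadm3 on the same strand, but held only 899 counts against 21126. Beside it stand the neuron markers, of which 13 of 16 rose (median log2 fold change 1.86): Tubb3 went from 91.8 ± 10.5 CPM (SD, n = 4) to 152 ± 34.0 CPM (SD, n = 3) and Dcx from 105 ± 64.5 to 568 ± 62.9 CPM. Their part in the change of Cadm3 was not tested.

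Cadm4 (chr7:24482023-24504539, + strand) encodes the SynCAM that myelinating glia place on their inner membrane. It was at 244, 514, 490 and 277 CPM in controls and at 270, 495 and 193 CPM in knockouts. The libraries fell apart by their share of ribosomal RNA reads and not by genotype: the 4 libraries above 10% held 193 to 277 CPM and the 3 below it 490 to 514 CPM. The log2 fold change was -0.26 (SE 0.39, 95% confidence interval -1.16 to 0.65, adjusted p = 0.686), an interval that covers a change past the fold threshold downwards. Within the 4 libraries above 10% the difference of the group means was -0.19 on the log2 scale and within the 3 below it -0.02. The mean log2 CPM of the 2 controls above 10% was lower by a difference of -0.95 than that of the 2 controls below it, and 2.00% of the tested genes had a lower value. The longest annotated transcript of Cadm4 has a GC content of 60.0%, higher than in 95.7% of the tested genes with such a value. The part of GC content in this split was not tested. With the class of ribosomal RNA share as a term, the log2 fold change was -0.11 and the adjusted p 0.556.

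**Figure D3:**
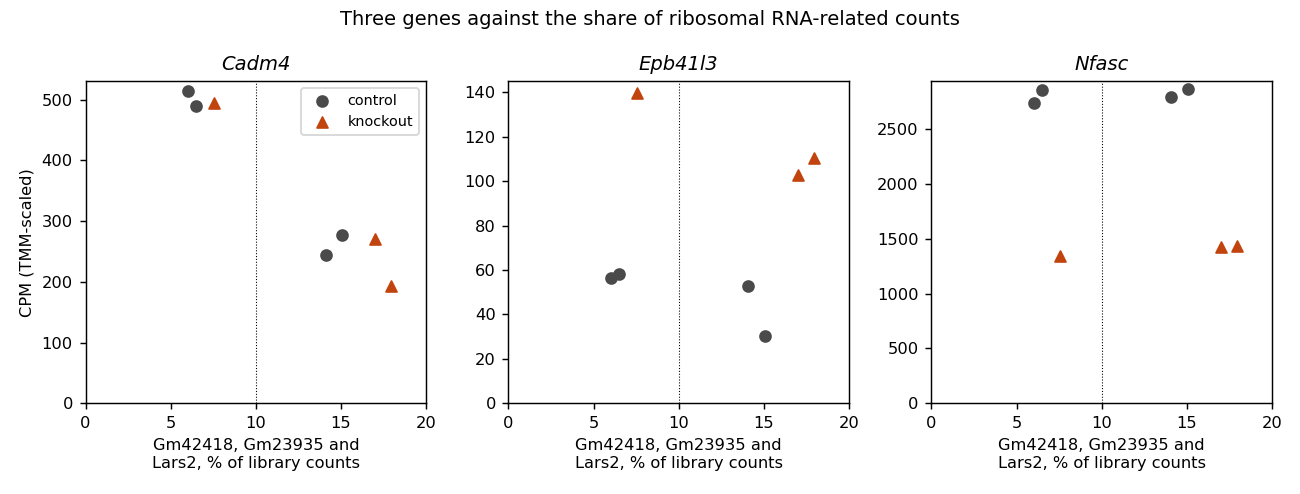
TMM-scaled CPM of Cadm4, Epb41l3 and Nfasc (vertical axes from 0) against the percentage of each library's counts on Gm42418, Gm23935 and Lars2; points are libraries and the dotted line marks 10%. Cadm4 is at 490 to 514 CPM left of the line and at 193 to 277 CPM right of it in both groups, while Nfasc separates by genotype on both sides.

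Epb41l3, the scaffold, had the highest log2 fold change of the 10. Epb41l3 (chr17:69156810-69289989, + strand) was at 52.8, 56.3, 58.4 and 30.4 CPM in controls and at 103, 140 and 111 CPM in knockouts. Every knockout lay above every control, control replicate 4 was the lowest and knockout replicate 2 the highest. The means were 49.5 ± 12.9 CPM (SD, n = 4) and 118 ± 19.4 CPM (SD, n = 3), a 2.38-fold higher level by the fit (log2 fold change 1.25, SE 0.23, 95% confidence interval 0.72 to 1.78, adjusted p = 0.00885). Leaving out 1 library moved the log2 fold change between 1.10 and 1.36 and kept the adjusted p at 0.0397 or below, and with the 4 libraries of the high ribosomal RNA share alone it was 1.34 with an adjusted p of 0.0615. The gene as counted begins 81127 bases after its start in GENCODE M21, so that any exon upstream of that point lies outside the counted span. The neuron and astrocyte marker sums were higher in the same knockout libraries, and their part in the rise of Epb41l3 was not tested.

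Compared per kilobase of exon, the level that allows genes to be set beside each other, Nfasc was the highest member in the controls at 199 CPM per kb, followed by Cadm4 at 176, Cntn1 at 64.9, Cadm1 at 42.6, Cadm2 at 35.5, Nrcam at 28.7, Epb41l3 at 12.03, Cadm3 at 7.03, Cntn2 at 1.23 and Cntnap1 at 0.448. The ranges of neighbours in this order overlapped for Nfasc and Cadm4 and for Epb41l3 and Cadm3, and for no other pair. Caspr, an axonal partner, was the lowest, but Cntn1 at 64.9 and Cadm2 at 35.5, whose products also act on axons, were far above it. The counts of Nfasc, the highest, hold both its glial and its neuronal isoform. In the knockouts Cadm4 led at 148 CPM per kb before Nfasc at 98.9, with overlapping ranges, and Epb41l3 at 28.6 had come to lie among Cadm1 at 29.0 and Nrcam at 24.5, with ranges that overlapped both. With coding length in place of exon length, 5 of the 10 kept their place in the control order. In the knockouts, Nfasc then led at 346 CPM per kb before Cadm4 at 274, with overlapping ranges, and Epb41l3 at 41.8 lay below Cadm1 at 213, Cadm3 at 67.7 and Nrcam at 49.2, with a range of 36.5 to 49.6 that overlapped that of Nrcam (46.7 to 52.0) but not those of Cadm1 and Cadm3.

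**Figure D4:**
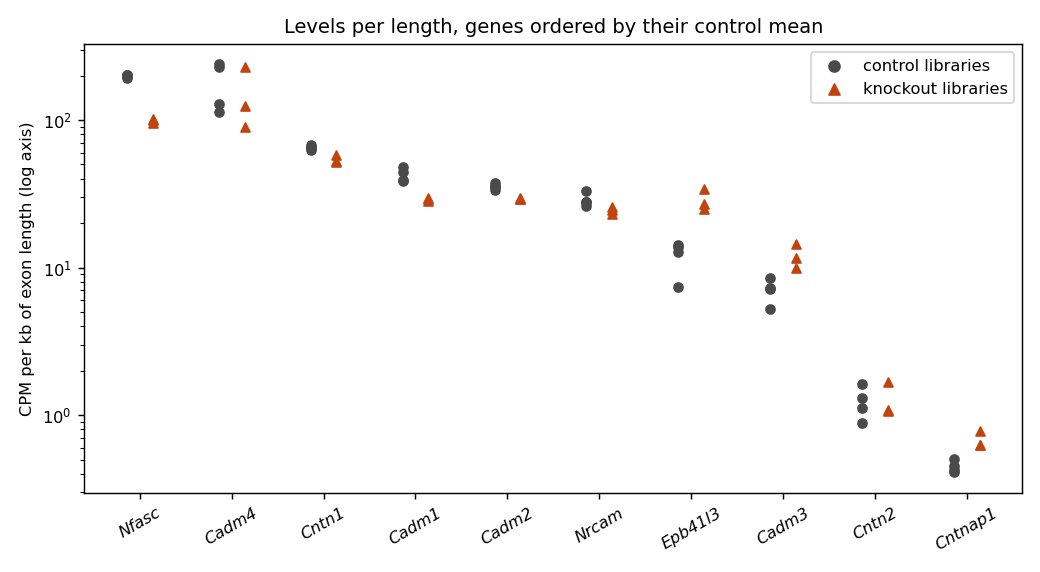
TMM-scaled CPM per kb of exon length (log axis) of the 10 genes, ordered from left to right by their control mean; points are the 4 control and 3 knockout libraries. The levels span from 199 for Nfasc to 0.448 for Cntnap1 in controls, and the knockout points lie apart below the controls for Nfasc and apart above them for Epb41l3.

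Within the gene families, per kilobase of exon, the makeup moved in the neurofascin pair and for Cadm3. Nfasc made up 85.9% to 88.6% of the sum of Nfasc and Nrcam in controls and 79.5% to 81.4% in knockouts, and the sum itself was 227 ± 5.97 CPM per kb (SD, n = 4) in controls and 123 ± 3.87 (SD, n = 3) in knockouts. Cntn1 made up 96.9% to 98.6% of the sum of both contactins in all libraries. Among the SynCAMs, Cadm4 was the largest in every library with 56.3% to 75.9% per kilobase of exon, but per kilobase of coding sequence it took 25.03% to 45.27% and was the largest in 4 of the 7 libraries, with Cadm1 the largest in 2 and Cadm2 in 1. Cadm3 took 2.30% to 3.66% in controls and 4.81% to 6.27% in knockouts by exon length, and 3.36% to 4.99% and 8.44% to 9.05% by coding length. These shares are descriptions and were not tested. The sum of the 4 SynCAMs, 262 ± 66.2 CPM per kb (SD, n = 4) in controls and 218 ± 74.6 (SD, n = 3) in knockouts, differed by less than the spread within either group. That spread followed the share of ribosomal RNA reads, with sums of 158 to 215 CPM per kb in the 4 libraries above 10% and 302 to 319 in the 3 below it.

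The genes whose profile over the 7 libraries was nearest to that of a member were found by the root mean square difference of log2 CPM, each gene centred on its control mean, among 14177 genes. Nfasc was nearest to Elovl1, a fatty acid elongase, at 0.039, then to Dusp7 at 0.052 and Vps37a at 0.054. Cntn1 had Ppp1r12a at 0.034, Msl3 and Trappc10 next to it, Cadm1 had Scarb2 at 0.041, Adpgk and Agps, and Cadm2 had Natd1 at 0.020, Arhgef7 and Ap3m1. The higher members had more distant neighbours: Cadm3 had Fam124a at 0.057, Tmem198 and Gabbr1, Cntnap1 had Rarb at 0.084, Pcdhb7 and Adarb1, and Epb41l3 had Grk3 at 0.091, Sept6 at 0.101 and Pi15 at 0.108. A small value describes likeness over these 7 libraries only.

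Around the members, 3 lists of related genes were read from the same fit. Of 20 partners of the node and the axon initial segment, 19 were tested, of which 5 fell, 6 rose and 8 did not pass, beside 12.2% lower and 11.6% higher among all tested genes, with a median log2 fold change of -0.11 against -0.0037 for all tested genes. Hapln2, a link protein of the nodal matrix, fell by 3.08 on the log2 scale, from 11.9 ± 3.41 CPM (SD, n = 4) to 1.41 ± 0.148 CPM (SD, n = 3). Ank3, the gene of the nodal scaffold ankyrin-G that binds neurofascin, fell by 0.95, from 396 ± 47.6 CPM (SD, n = 4) to 205 ± 2.77 CPM (SD, n = 3). Gldn, the matrix ligand of neurofascin and NrCAM known from Schwann cells, fell by 1.54 but with overlapping groups and at a mean of only 1.29 CPM in controls. L1cam, a neuronal adhesion molecule, rose by 1.23, Scn2b, a sodium channel subunit, by 0.76 and Vcan, a matrix proteoglycan made by precursors, by 0.50. Omg and Kcnq3 also fell, by 0.53 and 0.45. Tnr and Ncan, 2 further matrix genes, did not pass, with log2 fold changes of -0.11 and 0.13. Without control replicate 4 the number that rose was 3 and without knockout replicate 2 it was 1, the number that fell was 3 without any 1 of the knockout replicates, and with only the libraries of the high ribosomal RNA share 1 rose by edgeR, with 6 at an unadjusted p under 0.05, and after adjustment DESeq2 called 4 and limma 3. With the replicate block 4 fell and 6 rose, beside 2042 lower and 1741 higher over all genes, against 2246 and 2122 in the main fit. The neuron markers that rose in the same knockout libraries (13 of 16, median log2 fold change 1.86) stand beside these rises, and their part in them was not tested.

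All 23 partners of the paranode, juxtaparanode and internode were tested: 10 fell, 3 rose and 10 did not pass, with a median log2 fold change of -0.28. The number that rose was close to the 11.6% of all tested genes, while 12.2% of all tested genes fell. The genes that fell included Mag, the glial receptor of the inner myelin membrane, with -2.69, and Ugt8a, which makes the galactolipids that paranodes need, with -1.25. Lgi3, a secreted protein of the juxtaparanode, had -1.09, and Sptbn1, a spectrin, had -0.39. The groups lay well apart for Ugt8a, at 899 to 923 CPM in controls and 360 to 404 CPM in knockouts. Cntnap2, the gene of Caspr2, which partners Cntn2 at the juxtaparanode, rose by 2.13, from 6.65 ± 2.69 CPM (SD, n = 4) to 28.9 ± 4.25 CPM (SD, n = 3). Cgn, a tight junction protein, rose by 1.25 at a mean of 0.585 CPM in controls, and Dlg4, a scaffold of synapses and juxtaparanodes, by 0.61 with overlapping groups. Cd9, a tetraspanin, had a log2 fold change of -0.28 and did not pass. The number that rose was 1 without control replicate 4, knockout replicate 1 or knockout replicate 2, each left out singly, and 0 by edgeR with only the libraries of the high ribosomal RNA share, where 9 fell. There, 3 rose at an unadjusted p under 0.05, and DESeq2 called 3 and limma 1 after adjustment. With the replicate block 11 fell and 4 rose, beside 2042 lower and 1741 higher over all genes. The part of the higher neuron marker sums in the rises of Cntnap2 and Dlg4 was not tested. Beside the falls stand the 9 markers of myelinating oligodendrocytes, which all fell (median log2 fold change -3.15) and of which Mag is 1. Their part in the falls was not tested either.

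Of 12 relatives of the contactin, Caspr and L1 families, 10 were tested: 1 fell, 5 rose and 4 did not pass, with a median log2 fold change of 1.02. The 1 that fell was close to the 12.2% of all tested genes, of which 11.6% rose. Cntn3 fell by 1.08, from 11.0 ± 0.787 CPM (SD, n = 4) to 5.18 ± 0.340 CPM (SD, n = 3). Beside Cntnap2 and L1cam, Cntn5, Cntnap5a and Cntnap5b rose, Cntn5 by 1.90 and Cntnap5a by 1.89, from control means of 0.343 and 0.175 CPM. Chl1, the other L1 relative tested, had -0.37 and did not pass. The number that rose was 3 without knockout replicate 2. It was also 3 with at least 10 counts required in every library, a filter that removed Cntn5 and Cntnap5a from the test. By edgeR it was 0 with only the libraries of the high ribosomal RNA share. There, 4 rose at an unadjusted p under 0.05, and DESeq2 and limma each called 2 after adjustment. With the replicate block 1 fell and 4 rose, beside 2042 lower and 1741 higher over all genes. Neuron marker sums were higher in the knockouts, as given above, and their part in these 5 rises was not tested.

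**Figure D5:**
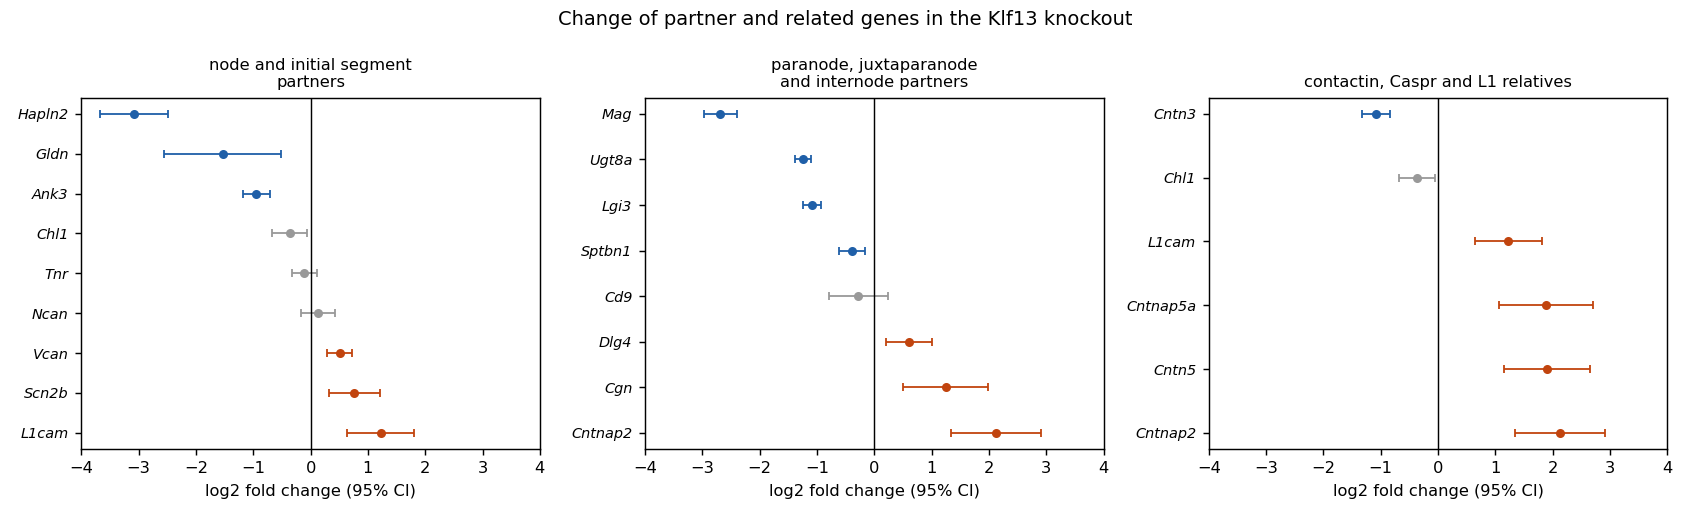
Log2 fold change with its 95% confidence interval of genes named above by rule from the 3 lists of partners and relatives; blue marks genes lower, red genes higher and grey genes not past an adjusted p of 0.05. Hapln2 and Mag lie furthest to the left at -3.08 and -2.69, Cntnap2 furthest to the right at 2.13.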

How the data were processed

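RNA was sequenced from 7 libraries. The deposited values are raw counts per gene, which the authors obtained by adapter trimming, alignment and counting of uniquely mapped reads on exons. The submitters' processing notes name Trimmomatic 0.36, STAR 2.5.2b, Subread 1.5.2 and GRCm38; the annotation release and the strand setting are not given in the sources used here. Of 49315 identifiers, 48970 had a symbol and 44858 the same start and end in GENCODE M21.

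Counts were fitted in R 4.3.3 with edgeR 4.0.16 (filterByExpr, TMM scaling, robust quasi-likelihood test with the group as its only term), with Benjamini-Hochberg adjustment across the 18352 genes that passed the filter. P-values measure the spread between cultures only. The code was tested on simulated data. Standard errors and 95% confidence intervals come from this fit. Alternatives were DESeq2 1.42.0, limma 3.58.1, other scalings and filters, the replicate block, the class of ribosomal RNA share (above or below 10%) and leaving out each library. The labels do not say what libraries of 1 number share. Their deviations from the group means correlated at 0.18, 0.58 and 0.37 in the 3 pairs with the same number. Across numbers they correlated at -0.64 to 0.32 (over genes, which are not independent), so the ranges overlapped and a pairing was not settled. The main fit left the numbers out, and the replicate block was run as an alternative. Control replicate 4 has no knockout of its number and adds nothing to the group difference in the blocked fit.

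The members and lists were chosen with earlier results of these data known. Named by rule were all members, Klf13, of each partner list the 3 genes with the highest mean CPM and the 3 lowest and 3 highest called log2 fold changes, up to 3 nearest profiles of each called member, and up to 2 markers per cell type. Omg, Kcnq3, Cntnap5b, Dcn and Cdh5 were named after their values were seen. The values of 1 gene that the rule names are not reported here. Protein sequences were not analysed here.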

Additional observations from a re-analysis of the deposited data

Results flagged for a closer look

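Among 71 genes looked at, 5 had 1 control library far from the other 3 by Dixon's criterion on the gap to the nearest library relative to the range, which chance meets in about 5 of 100 groups. They were Ank3, the ankyrin that binds neurofascin, at 325 CPM in control replicate 3, Cd9 at 1516 CPM in control replicate 4, Tubb3 at 76.2 CPM in control replicate 1, and the microglia markers C1qa and C1qb at 489 and 433 CPM in control replicate 3. None of the 10 members was among them. The low control value of Ank3 still lay above its 3 knockout values, and the high value of Cd9 lay above its knockouts, of which the highest was at 1051 CPM.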

How the results depend on the processing

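Nfasc, Cadm1 and Klf13 kept direction and call under all 17 alternatives, and Nrcam stayed below the threshold in all. Cntn1 lost its call with upper quartile scaling (-0.22, adjusted p = 0.0618, edgeR) and total counts only (-0.21), and Cntnap1 without a filter on low counts (0.60) and with the replicate block (0.58). The block changed no other call of a member, and left 4 node partners lower and 6 higher, 11 paranode partners lower and 4 higher, and 1 relative lower and 4 higher. Over all genes it left 2042 lower and 1741 higher. With at least 10 counts in every library, 3 relatives rose, with Cntn5 and Cntnap5a removed by the filter. With coding length, 5 members kept their place. The following comparison of 2 with 2 libraries of the high ribosomal RNA share was chosen after seeing the data: Cntn1 was at -0.22, Cntnap1 at 0.41, Cadm3 at 0.79 and Epb41l3 at 1.34, all 4 short of the threshold, Cntn2 reversed to -0.051, 1025 of all genes fell and 650 rose, and by edgeR 0 members rose (2 at an unadjusted p under 0.05, 2 by DESeq2 and 2 by limma after adjustment). There, 1 node partner rose (6 unadjusted, 4 by DESeq2 and 3 by limma), with 0 paranode partners (3 unadjusted, 3 by DESeq2 and 1 by limma) and 0 relatives (4 unadjusted, 2 by each other tool). The cause was not tested. With 1 library left out, log2 fold changes ran from -0.30 to -0.21 for Cntn1, 0.49 to 0.68 for Cntnap1, -0.28 to -0.13 for Nrcam, -0.30 to -0.23 for Cadm2 and 0.62 to 0.91 for Cadm3. Cntn2 ran from -0.20 to 0.21 (-0.06 without control replicate 1 and -0.20 without knockout replicate 2) and Cadm4 from -0.72 to 0.018, positive without knockout replicate 3. The members that fell numbered 2 to 4 and those that rose 1 to 3, all genes that fell 1254 to 2032 and that rose 850 to 1843, node partners that fell 3 to 5 and that rose 1 to 6, paranode partners that rose 1 to 3 and relatives that rose 3 to 6. No alternative shifted the median log2 fold change of all tested genes by over 0.1. Cntnap1 had the fewest counts of the members, 90 to 292 per library.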
